A study of Homo sapiens with 8 samples.

Results

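Untreated ATM knockdown cells were set against irradiated wild-type cells, to ask whether the knockdown at rest resembles wild type that has been irradiated. ATM is the kinase that senses DNA double-strand breaks and phosphorylates p53, the checkpoint kinases and many repair proteins. After such damage it also sends a signal to the transcription factor NF-kB, which turns on cytokine and survival genes. Cells that lack ATM are known for poor checkpoint control after irradiation and for oxidative stress at rest.

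The comparison held 181 of the 363 cells kept in the series, in 4 of its 8 libraries, chosen by their labels and by at least 1000 detected genes and 5000 counts per cell. All cells came from the human line MDA-MB-231, which was set up from a triple-negative breast cancer, and were picked 1 by 1 and amplified by a modified Smart-seq2 protocol. The untreated ATM knockdown gave 41 and 44 cells in its 2 libraries. The irradiated wild type (WT), which received 5 Gy and another 4 h of culture, gave 48 and 48 cells. Untreated WT, with 48 and 48 cells, served as a shared baseline for both, and irradiated ATM knockdown, with 43 and 43 cells and the same dose and time, entered the fit for its spread and the distances between libraries. How ATM was knocked down, whether the knockdown is 1 clone, and whether WT cells carried a control construct are not given in the sources used here. The compared groups differ in genotype and in irradiation at once, so those 2 factors cannot be told apart in the direct comparison. All WT libraries share 1 title suffix and all knockdown libraries another, and any difference in handling that goes with the suffix cannot be told apart from genotype. No label ties the 2 libraries of a group to separate cultures. The p-values therefore rest on library-to-library spread that could be technical.

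Kept cells held 15286467 and 17661327 counts in the untreated knockdown libraries and 9321268 and 19675584 counts in the irradiated WT libraries. Irradiated WT replicate 1 was the shallowest, with a median of 144943 counts per cell against 313443 to 357508 in the other 3 libraries. The 10 largest cells held 54.9% and 48.7% of the counts in the untreated knockdown and 46.1% and 46.9% in irradiated WT, so a summed level can rest on few cells. With cells thinned to 69000 counts each, the mean share of mitochondrial counts was 12.5% and 13.8% in the untreated knockdown and 10.3% and 10.6% in irradiated WT. The median number of detected genes at that depth was 5303 and 5160 in the untreated knockdown and 5861 and 5574 in irradiated WT. The part of these differences in the results below was not tested. The libraries shared 0 cell names. Levels below are CPM, counts per 1000000 counts of the library, after TMM scaling. Each difference is on the log2 scale, untreated ATM knockdown minus irradiated WT, and each adjusted p is from edgeR's quasi-likelihood test with Benjamini-Hochberg adjustment over all genes tested.

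The targeted gene was checked first. ATM, which spans 108222484 to 108369102 on chromosome 11 of GRCh38 (ENSG00000149311.18), stood at 13.6 and 31.9 CPM in the untreated knockdown, at 29.1 and 33.9 CPM in irradiated WT, and at 58.2 and 31.9 CPM in untreated WT. Knockdown replicate 1 was the lowest of these 6 libraries and knockdown replicate 2 lay among the WT libraries, so the groups overlapped. After irradiation the knockdown had ATM at 12.6 and 13.9 CPM. The difference was -0.47 (SE 0.412, adjusted p = 0.59, 95% interval -1.35 to 0.41) and did not pass the test. Against untreated WT the untreated knockdown differed by -0.98 (adjusted p = 0.157), which did not pass either. At equal depth ATM was detected in 33.3% of 33 and 37.5% of 40 cells in the untreated knockdown, and in 53.8% of 39 and 54.3% of 46 cells in irradiated WT. By detection both knockdown libraries were therefore below both irradiated WT libraries, while 1 cell held 24.9% of the summed ATM counts in knockdown replicate 2. The detection shares were not tested, so a lower ATM level was not established here.

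Over the whole transcriptome, the untreated knockdown lay nearer to irradiated WT than to untreated WT, and nearest to the irradiated knockdown. The root mean square log2 difference between library pairs over all genes tested ran from 1.347 to 1.377 for untreated knockdown to irradiated WT and from 1.463 to 1.502 for untreated knockdown to untreated WT. For untreated knockdown to irradiated knockdown it ran from 1.19 to 1.21, and it was 1.25 between the 2 untreated knockdown libraries themselves. The ranges for the 2 WT groups did not overlap. Among the 5031 genes whose average log2 CPM reached 5, where counting error is smaller, the untreated knockdown was at 0.590 to 0.618 from irradiated WT, at 0.686 to 0.719 from untreated WT and at 0.465 to 0.474 from the irradiated knockdown. Replicates of 1 group were 0.402 to 0.429 apart there in the untreated knockdown, irradiated WT and untreated WT. The distance of the untreated knockdown from irradiated WT was thus larger than the spread between replicates, and also larger than the 0.524 to 0.549 between irradiated and untreated WT. The 4 pairs behind each range share libraries, and these distances are given as a description, with no test.

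**Figure D1:**
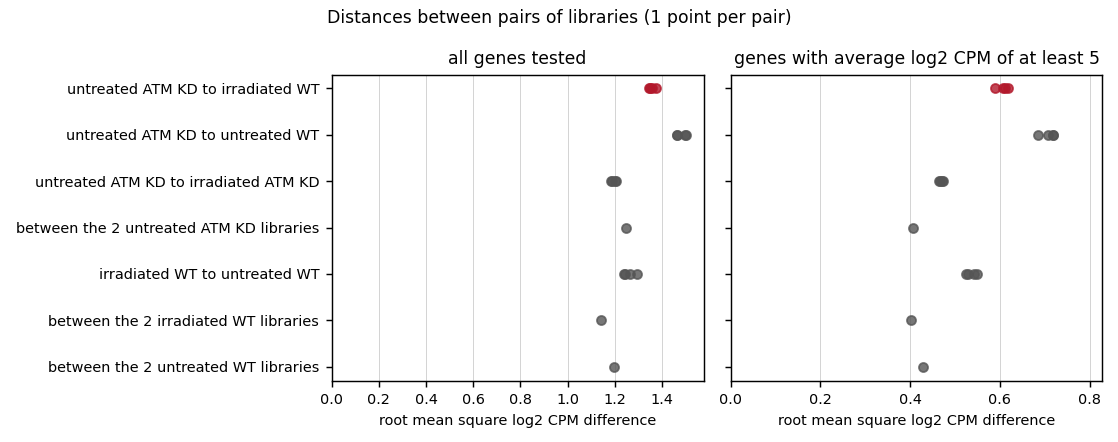
Root mean square log2 CPM difference for each pair of libraries, with all genes tested on the left and genes whose average log2 CPM reached 5 on the right; each point is 1 pair of libraries. In both panels the 4 pairs of untreated ATM knockdown (KD) and irradiated WT (red) lie left of the pairs of untreated ATM knockdown and untreated WT.

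Of 12456 genes tested, 549 passed an adjusted p of 0.05, or 4.41%. Of these 226 (1.81%) were higher in the untreated knockdown and 323 (2.59%) were lower, and 333 of the 549 differed by at least 2-fold. Without composition scaling, on library totals only, the split was 308 higher and 270 lower, with a median difference over all genes of 0.070 in place of -0.00061. The 2 and 2 libraries did not overlap for 48.5% of all genes tested, nor for any of the 549 that passed. At the other end, 3875 genes (31.1%) had a 95% interval that lay wholly within 2-fold in either direction, unadjusted for the number of genes. Among the 5031 genes of higher level 440 passed the test and 3414 (67.9%) lay within 2-fold. Of those 440 genes, 177 were higher in the untreated knockdown. The shares over all genes, 1.81% higher, 2.59% lower and 31.1% within 2-fold, are the background for the list counts below. All 3 shares are larger among genes of higher level, so for lists of abundant genes this background is too low.

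**Figure D2:**
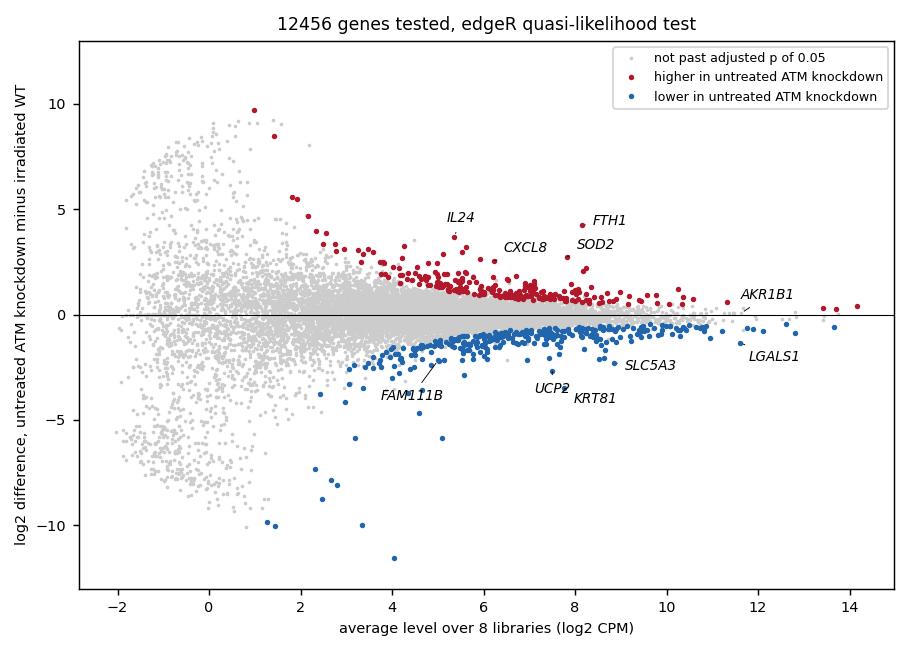
Log2 difference, untreated ATM knockdown minus irradiated WT, against the average log2 CPM over 8 libraries, with 1 point per gene tested. The 226 genes that passed higher in the untreated knockdown are red, the 323 that passed lower are blue, and AKR1B1, far from the baseline in both groups, lies at 0.07.

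Some named genes stood at about the same level in the untreated knockdown and in irradiated WT, with both far below untreated WT. How many of all genes did so was not counted. AKR1B1, an aldose reductase that makes sorbitol from glucose (134442350 to 134459284 on chromosome 7, ENSG00000085662.13), was at 1537 and 1675 CPM in the untreated knockdown, at 1625 and 1445 CPM in irradiated WT, and at 7639 and 7663 CPM in untreated WT. The first 2 groups overlapped, and both lay below untreated WT in every library. The difference was 0.07 (SE 0.0974, adjusted p = 0.776), and its 95% interval of -0.14 to 0.27 lay well within 2-fold in either direction. Against the same untreated WT libraries, AKR1B1 differed by -2.25 in the untreated knockdown and by -2.32 in irradiated WT. Those 2 values share their baseline and are not independent of each other.

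The aldo-keto reductases AKR1C1 and AKR1C2, which reduce steroids and lipid aldehydes, were far below untreated WT in both groups. AKR1C1 was at 68.7 and 61.8 CPM in the untreated knockdown, at 69.4 and 111 CPM in irradiated WT and at 611 and 575 CPM in untreated WT, with a difference of -0.47 (95% interval -0.95 to 0.00, adjusted p = 0.273). Its knockdown libraries were both lower than its irradiated WT libraries, by a narrow margin, and it passed lower with limma on the mean CPM per cell (adjusted p = 0.0252) and without cells above 2 times the median total (adjusted p = 0.00663). AKR1C2 was at 8.84 and 15.8 CPM in the untreated knockdown, at 7.36 and 12.4 CPM in irradiated WT and at 131 and 92.9 CPM in untreated WT, with a difference of 0.31 (95% interval -0.47 to 1.09). These paralogs are nearly identical in sequence, so their reads may be split between them. AKR1C2 did not pass the test either. JUNB, a subunit of the early response factor AP-1, was at 39.7 and 33.7 CPM in the untreated knockdown, at 53.1 and 43.5 CPM in irradiated WT and at 116 and 109 CPM in untreated WT. Its knockdown libraries were both lower than its irradiated WT libraries, by an amount that did not pass (-0.39, 95% interval -0.93 to 0.14).

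The cystatins and SOX4, which were low in irradiated WT, were also low in the untreated knockdown, with more spread between libraries. The cysteine protease inhibitor CST1 was at 81.6 and 42.1 CPM in the untreated knockdown, at 62.9 and 20.6 CPM in irradiated WT and at 216 and 653 CPM in untreated WT. Its difference of 0.58 had an interval of -0.87 to 2.04, and 1 cell held 90.4% of its counts in knockdown replicate 1 and 75.5% in irradiated WT replicate 1, so the level is poorly known. Its relative CST4 was at 75.7 and 39.7 CPM in the untreated knockdown, at 17.1 and 15.0 CPM in irradiated WT and at 170 and 469 CPM in untreated WT. CST4 passed narrowly (1.85, SE 0.500, adjusted p = 0.0485), and lost the call without untreated knockdown replicate 1 (adjusted p = 0.11) or irradiated WT replicate 2 (adjusted p = 0.124) and with DESeq2's Wald test (adjusted p = 0.139). In the untreated knockdown 1 cell held 82.8% and 57.4% of the CST4 counts, and the shares of cells with CST4 at equal depth overlapped, at 33.3% and 30.0% in the untreated knockdown and 35.9% and 28.3% in irradiated WT. SOX4, a transcription factor of progenitor cells, was at 71.3 and 33.1 CPM in the untreated knockdown, at 17.2 and 20.0 CPM in irradiated WT and at 201 and 365 CPM in untreated WT. It did not pass (1.48, adjusted p = 0.0789), although its groups did not overlap, and it passed in 10 of the 19 alternatives. By detection the order was the other way round, with SOX4 in 6.06% and 10.0% of cells in the untreated knockdown and in 15.4% and 21.7% in irradiated WT, and 1 cell held 58.4% and 87.3% of its counts in the untreated knockdown.

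The osmolyte transporter gene and its neighbour were lower in the untreated knockdown than in irradiated WT, which was itself low. SLC5A3, which carries sodium and myo-inositol into cells (34073570 to 34106262 on chromosome 21), was at 71.9 and 52.9 CPM in the untreated knockdown, at 206 and 404 CPM in irradiated WT and at 1306 and 1557 CPM in untreated WT. No 2 groups overlapped, and the difference was -2.29 (SE 0.250, adjusted p = 0.00014). MRPS6 (chromosome 21, 34073224 to 34143034), a protein of the mitochondrial ribosome, was at 159 and 152 CPM in the untreated knockdown, at 343 and 415 CPM in irradiated WT and at 1169 and 1235 CPM in untreated WT, with a difference of -1.28 (SE 0.144, adjusted p = 0.00018). The SLC5A3 span lies inside that of MRPS6, and whether the counting used the strand is not stated, so their counts may not be separate. AKR1C3, a reductase of steroids and prostaglandins, was at 345 and 232 CPM in the untreated knockdown, at 520 and 632 CPM in irradiated WT and at 1357 and 1282 CPM in untreated WT (-0.998, SE 0.171, adjusted p = 0.00347). SLC38A2, an amino acid transporter that responds to osmotic stress, also passed lower (-0.87), a call lost without untreated knockdown replicate 1 (adjusted p = 0.134) or irradiated WT replicate 2 (adjusted p = 0.0804). Of the 8 osmoprotective genes tested, 3 passed lower (2.59% of all genes did) and 0 higher. The median difference was -0.58 against -0.00061 for all genes. The 3 that passed were SLC5A3, MRPS6 and SLC38A2, so the limits given above for these genes hold for the count.

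**Figure D3:**
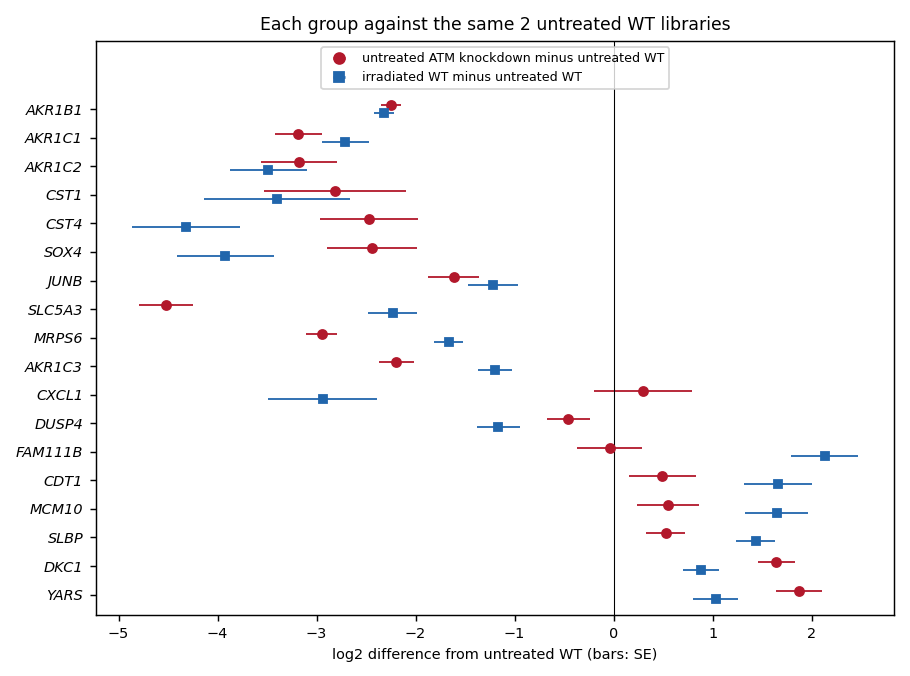
Log2 difference from the same 2 untreated WT libraries (x axis, bars are SE) for 18 genes, in the untreated ATM knockdown (red circles) and in irradiated WT (blue squares). AKR1B1 lies at -2.25 in the untreated knockdown and -2.32 in irradiated WT, SLC5A3 at -4.52 and -2.23, and FAM111B at -0.04 and 2.13. The genes were chosen after their values were seen, and the 2 values of a gene share a baseline.

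Genes of DNA replication did not share the level of irradiated WT, and several passed lower in the untreated knockdown. These genes are turned on by E2F factors as cells pass from G1 into S phase. FAM111B, a protease tied to replication (59107185 to 59127410 on chromosome 11, ENSG00000189057.10), was at 10.6 and 13.9 CPM in the untreated knockdown, at 45.0 and 65.5 CPM in irradiated WT and at 10.8 and 14.5 CPM in untreated WT. The knockdown overlapped untreated WT and lay below both irradiated WT libraries, with a difference of -2.17 (SE 0.340, adjusted p = 0.00203). At equal depth FAM111B was detected in 18.2% and 20.0% of cells in the untreated knockdown, in 41.0% and 45.7% in irradiated WT, and in 20.9% and 21.7% in untreated WT. SLBP, which binds histone mRNAs, was at 141.6 and 157 CPM in the untreated knockdown, at 226 and 334 CPM in irradiated WT and at 101 and 107 CPM in untreated WT. SLBP passed (-0.91, SE 0.198, adjusted p = 0.0164), a call lost without untreated knockdown replicate 1 (adjusted p = 0.0684) or irradiated WT replicate 2 (adjusted p = 0.198).

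The enzymes that supply thymidine nucleotides were lowest in the untreated knockdown of the 3 groups. TK1 (chromosome 17, 78174075 to 78187233), thymidine kinase, was at 83.9 and 115 CPM in the untreated knockdown, at 379 and 346 CPM in irradiated WT and at 269 and 223 CPM in untreated WT. It passed with a difference of -1.87 (SE 0.199, adjusted p = 0.00012), and was detected in 66.7% and 72.5% of cells in the untreated knockdown and in 97.4% and 91.3% in irradiated WT. TYMS, thymidylate synthase, was at 168 and 125 CPM in the untreated knockdown, at 261 and 329 CPM in irradiated WT and at 207 and 186 CPM in untreated WT (-1.01, SE 0.190, adjusted p = 0.00649). Without irradiated WT replicate 2 its adjusted p was 0.0569, and without untreated knockdown replicate 2 it was 0.0522. Against untreated WT the untreated knockdown passed lower for TK1 (-1.31, adjusted p = 0.000702) and not for TYMS (-0.42, adjusted p = 0.186). The replication factors CDT1 and MCM10 pointed the same way and did not pass (-1.17 with an adjusted p of 0.0675, and -1.09 with an adjusted p of 0.0622).

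Of the 47 G1/S and DNA replication genes tested, 43 were lower in the untreated knockdown, 8 passed lower and 0 higher, where 2.59% of all genes passed lower, and the median difference was -0.82 against -0.00061 for all genes. Among the 8 were TK1, FAM111B, TYMS, SLBP, the transcription factor E2F1, the licensing factor CDC6 and the clamp loader subunit RFC2. Their number depended on single libraries: 3 passed without irradiated WT replicate 2, and 18 each without irradiated WT replicate 1, untreated WT replicate 1 or untreated WT replicate 2. Against untreated WT, the median of the 47 genes was 0.36 in the untreated knockdown and 0.99 in irradiated WT. Genes of mitosis gave 0 calls of 47 in either direction by edgeR, 2 by DESeq2's Wald test and 6 at an unadjusted p below 0.05, with 21 within 2-fold. The cyclin CCNB1 was at 277 and 421 CPM in the untreated knockdown and at 534 and 150 CPM in irradiated WT, and the polo kinase PLK1 at 81.3 and 92.1 CPM in the untreated knockdown and at 141.5 and 44.2 CPM in irradiated WT. The irradiated WT libraries lay on either side of the knockdown for both genes. In untreated WT, too, replicate 1 was above replicate 2, at 430 and 281 CPM for CCNB1 and at 152 and 47.4 CPM for PLK1. The cause of this split was not tested. The median of the mitosis list was -0.04, or -0.42 without irradiated WT replicate 2 and 0.45 without irradiated WT replicate 1, and those fits called 3 lower and 4 higher. Without untreated WT replicate 1 or untreated WT replicate 2, 3 passed lower and 1 higher.

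The TYMS promoter is shown as an example of a lower gene with a match to an E2F type motif (TTTNNCGC, sought on both strands). The window is chr18:657403-657702 on the plus strand, from RefSeq on GRCh38.p14, 250 bases before to 50 after the gene's start, 5′ to 3′ with the match in capitals:
TYMS: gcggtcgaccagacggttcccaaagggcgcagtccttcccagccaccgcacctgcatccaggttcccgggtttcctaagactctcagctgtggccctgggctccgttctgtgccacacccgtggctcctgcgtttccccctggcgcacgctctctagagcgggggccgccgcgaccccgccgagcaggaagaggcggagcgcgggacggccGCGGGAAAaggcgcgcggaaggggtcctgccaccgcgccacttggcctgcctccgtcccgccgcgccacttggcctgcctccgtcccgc
The match is read on the minus strand. Promoters were at hand for 6 of the 8 genes that passed lower, and CDC6, E2F1 and TYMS held a match. Counted by promoter, 3 of the 7 of those 6 genes did (42.9%), against 6.89% of 35116 promoters. Genes of this list are turned on by E2F factors, so this share is no independent result about these data. A match is a description of these letters and not a measured site.

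NF-kB target genes were higher in the untreated knockdown than in irradiated WT. CXCL8, also called interleukin-8, which draws neutrophils (73740506 to 73743716 on chromosome 4, ENSG00000169429.10), was at 171 and 235 CPM in the untreated knockdown, at 10.9 and 57.5 CPM in irradiated WT and at 92.6 and 28.0 CPM in untreated WT. Both knockdown libraries lay above all 4 WT libraries. The difference from irradiated WT was 2.55 (SE 0.587, adjusted p = 0.0222), and DESeq2's Wald test gave an adjusted p of 0.0725. At equal depth CXCL8 was detected in 57.6% and 80.0% of cells in the untreated knockdown and in 23.1% and 52.2% in irradiated WT.

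CXCL1, IL6 and LIF of the same list also passed higher. CXCL1, another neutrophil chemoattractant, was at 43.8 and 34.5 CPM in the untreated knockdown, at 5.02 and 3.37 CPM in irradiated WT and at 17.3 and 46.4 CPM in untreated WT (3.24, SE 0.556, adjusted p = 0.00356). For CXCL1 the untreated knockdown overlapped untreated WT, and irradiated WT lay below both of those groups in every library. The irradiated knockdown was also low, at 0.882 and 2.20 CPM. IL6, a cytokine of acute inflammation, was at 157 and 190 CPM in the untreated knockdown, at 23.1 and 75.3 CPM in irradiated WT and at 51.1 and 51.4 CPM in untreated WT (1.81, SE 0.376, adjusted p = 0.0124). LIF, a cytokine of the same family, was at 48.3 and 58.0 CPM in the untreated knockdown, at 11.1 and 8.20 CPM in irradiated WT and at 7.95 and 5.44 CPM in untreated WT (2.46, SE 0.361, adjusted p = 0.00127). For IL6 and LIF the knockdown lay above both WT groups in every library.

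The promoters of CXCL8, CXCL1 and IL6 are shown because these genes passed higher together and each holds a match to an NF-kB type motif (GGNNTTTCC, sought on both strands). The windows are chr4:73740319-73740618 for CXCL8, chr4:73869143-73869442 for CXCL1 and chr7:22726950-22727249 for IL6, all on the plus strand, from RefSeq on GRCh38.p14, 5′ to 3′ with each match in capitals:
CXCL8: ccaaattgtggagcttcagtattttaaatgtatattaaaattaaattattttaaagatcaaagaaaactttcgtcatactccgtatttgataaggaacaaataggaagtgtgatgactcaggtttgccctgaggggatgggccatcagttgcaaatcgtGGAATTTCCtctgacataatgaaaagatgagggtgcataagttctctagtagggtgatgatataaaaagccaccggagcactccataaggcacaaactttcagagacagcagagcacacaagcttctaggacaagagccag
CXCL1: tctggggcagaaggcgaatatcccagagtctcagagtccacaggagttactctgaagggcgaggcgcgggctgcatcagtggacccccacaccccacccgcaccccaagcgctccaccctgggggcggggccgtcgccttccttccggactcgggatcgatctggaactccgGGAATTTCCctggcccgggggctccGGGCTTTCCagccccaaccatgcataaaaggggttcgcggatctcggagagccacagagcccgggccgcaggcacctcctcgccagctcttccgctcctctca
IL6: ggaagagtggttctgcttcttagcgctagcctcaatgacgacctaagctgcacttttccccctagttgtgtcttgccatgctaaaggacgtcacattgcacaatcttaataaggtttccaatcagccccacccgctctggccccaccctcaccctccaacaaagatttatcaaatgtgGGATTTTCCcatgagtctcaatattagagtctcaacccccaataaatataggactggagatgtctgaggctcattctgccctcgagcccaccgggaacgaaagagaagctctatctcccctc
The matches begin 91 bases before the start for CXCL8 and 72 before for IL6, and the first of 2 in CXCL1 begins 78 before. Promoters were at hand for 6 of the 7 list members that passed higher, and BIRC3, CXCL1, CXCL8 and IL6 held a match. Counted by promoter, 4 of the 9 of those 6 genes did (44.4%), against 6.26% of 35116 promoters. The list was made of NF-kB targets, so this share is no independent result about these data. A match names letters in the window and says nothing about binding.

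SOD2, BIRC3 and ZC3H12A of the same list also passed higher. SOD2, the manganese superoxide dismutase of mitochondria, was at 665 and 255 CPM in the untreated knockdown, at 75.3 and 61.5 CPM in irradiated WT and at 244 and 130 CPM in untreated WT (2.75, SE 0.362, adjusted p = 0.000599). In knockdown replicate 1, 1 cell held 53.4% of the SOD2 counts. The apoptosis inhibitor BIRC3 was at 241 and 285 CPM in the untreated knockdown, at 89.6 and 141 CPM in irradiated WT and at 94.6 and 154 CPM in untreated WT (1.19, SE 0.261, adjusted p = 0.0171), a call lost without irradiated WT replicate 1 (adjusted p = 0.0956). ZC3H12A, an RNase that degrades cytokine mRNAs, passed at 2.67. Of the 28 NF-kB targets tested, 25 were higher, 7 passed higher (1.81% of all genes did) and 1 passed lower, with a median of 1.53. The number that passed higher was 12 with untreated WT replicate 1 left out and 11 with replicate 2 left out.

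The 1 lower member was CCL2, the monocyte chemoattractant. It had 0 counts in both untreated knockdown libraries, against 29.3 and 12.7 CPM in irradiated WT and 66.1 and 22.01 CPM in untreated WT. In irradiated WT it was detected in 20.5% and 6.52% of cells, and 1 cell held 48.7% and 97.55% of its counts. With a floor of 3 counts per library in the untreated knockdown, CCL2 was at least 118-fold lower there than the irradiated WT mean of 21.0 CPM. This bound is on group means and does not hold for each library, and the WT mean rests on few cells. CXCL2 was at 136 and 160 CPM in the untreated knockdown and at 12.6 and 67.3 CPM in irradiated WT, and the colony-stimulating factor CSF2 at 226 and 177 CPM in the untreated knockdown and at 19.5 and 107 CPM in irradiated WT. Neither passed (adjusted p = 0.0951 for CXCL2 and 0.126 for CSF2), and for both the irradiated WT libraries lay far apart. Each passed in 8 of the 19 alternatives, and 1 cell held 84.6% of the CSF2 counts in irradiated WT replicate 2. The feedback inhibitor NFKBIA was at 344 and 389 CPM in the untreated knockdown and at 385 and 530 CPM in irradiated WT (-0.32, adjusted p = 0.48).

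**Figure D4:**
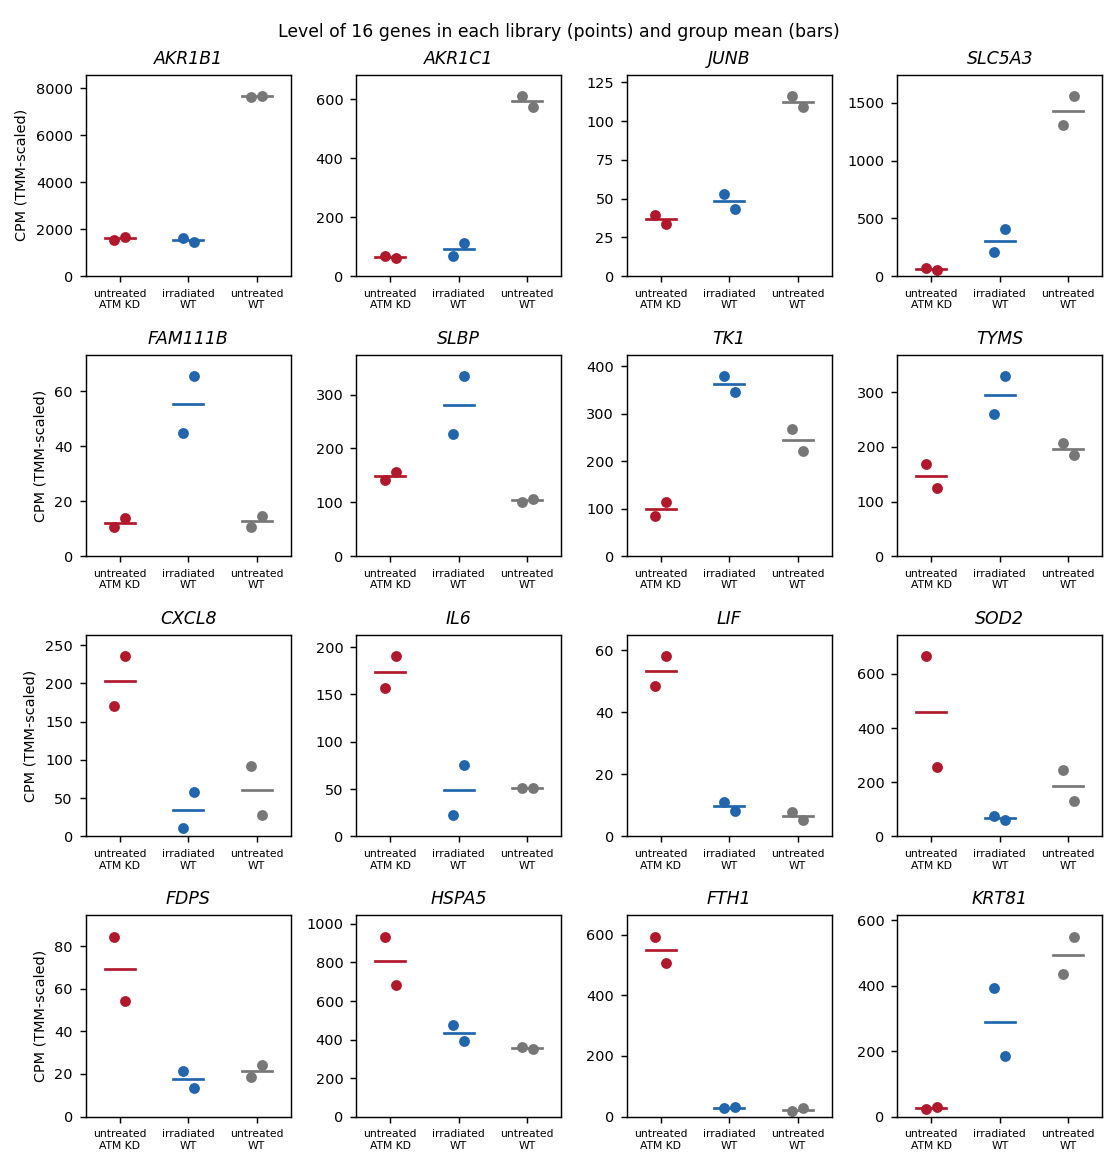
CPM (TMM-scaled) of 16 genes in each library (points) and the mean of each group (bars), for untreated ATM knockdown (KD, red), irradiated WT (blue) and untreated WT (grey). AKR1B1 is level between the first 2 groups and far below untreated WT, FAM111B is high in irradiated WT alone of the 3 groups shown, and IL6, LIF and FTH1 are highest in both untreated knockdown libraries.

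Outside that list, IL24, PLAUR and HSPG2 were also higher, while other secreted genes, such as MDK (-2.14) and FN1 (-1.52), passed lower. IL24, a cytokine of the interleukin-10 family, was at 179 and 56.7 CPM in the untreated knockdown and at 5.91 and 11.9 CPM in irradiated WT (3.69, SE 0.775, adjusted p = 0.0129). In replicate 1, 1 cell held 52.55% of the IL24 counts in the untreated knockdown and 64.15% in irradiated WT. The urokinase receptor PLAUR was at 248 and 178 CPM in the untreated knockdown and at 85.6 and 72.2 CPM in irradiated WT (1.44, adjusted p = 0.00543). The groups overlapped for neither gene, which held for all 549 genes that passed. HSPG2, the basement membrane proteoglycan perlecan, was at 86.1 and 84.9 CPM in the untreated knockdown and at 11.3 and 10.7 CPM in irradiated WT (2.96, SE 0.271, adjusted p = 2.86e-05). Of 22 genes of senescence-associated secretion tested, 2 passed higher, PLAUR among them, and 2 lower (IGFBP4 and TIMP1), with a median of 0.38; leaving out each library in turn gave 2 to 5 higher, the most without untreated knockdown replicate 2, and 1 to 4 lower, the fewest without irradiated WT replicate 1.

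Some immediate early genes and p53 targets passed higher, where 1.81% of all genes tested passed higher and 2.59% lower. MYC, the growth-promoting transcription factor, was at 186 and 183 CPM in the untreated knockdown, at 67.8 and 61.1 CPM in irradiated WT and at 88.4 and 94.2 CPM in untreated WT (1.52, SE 0.214, adjusted p = 0.00106). Of 27 immediate early genes tested, MYC, KLF6 and FOSL2 passed higher and 0 lower, with a median of 0.13. FOSL2 lost its call without untreated knockdown replicate 1 (adjusted p = 0.126) or irradiated WT replicate 2 (adjusted p = 0.298). CDKN1A, the p21 inhibitor of cyclin-dependent kinases and a classical p53 target, was at 131 and 92.0 CPM in the untreated knockdown, at 48.7 and 42.9 CPM in irradiated WT and at 55.7 and 28.5 CPM in untreated WT. It passed (1.28, SE 0.315, adjusted p = 0.0314) and lost the call without untreated knockdown replicate 1 (adjusted p = 0.107) or irradiated WT replicate 2 (adjusted p = 0.121). MDM2, the ubiquitin ligase of p53, was at 17.4 and 19.7 CPM in the untreated knockdown and at 27.2 and 16.4 CPM in irradiated WT (-0.23, adjusted p = 0.813). Of 30 p53 targets tested, CDKN1A and SESN2 passed higher and 0 lower, with a median of 0.18, and 1 to 5 passed higher with each library left out in turn. SESN2 lost its call without untreated knockdown replicate 1 (adjusted p = 0.204) or irradiated WT replicate 2 (adjusted p = 0.149). MDA-MB-231 is known to carry mutant p53.

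Genes of double-strand break repair gave 0 calls by edgeR. In homologous recombination and the Fanconi anaemia pathway 0 of 31 passed in either direction, 25 were lower and the median was -0.62; 4 had an unadjusted p below 0.05 and DESeq2's Wald test called 1. In non-homologous end joining 0 of 14 passed, with a median of -0.12 and 8 within 2-fold, while 2 had an unadjusted p below 0.05 and DESeq2's Wald test called 0. Among 20 damage sensing and checkpoint genes 1 passed, the checkpoint kinase CHEK1, which was at 34.7 and 28.8 CPM in the untreated knockdown and at 80.4 and 78.1 CPM in irradiated WT (-1.32, adjusted p = 0.0203). Among these, 0 passed without untreated knockdown replicate 2, irradiated WT replicate 1 or irradiated WT replicate 2. At the median precision of all genes, a 95% interval, unadjusted for the number of genes, reached 0.865 to either side of the estimate. A call needed an adjusted p below 0.05, which is stricter. Differences of that size, and somewhat larger ones, were therefore often not detectable, and 0 calls do not show equal levels.

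Cholesterol synthesis genes were higher in the untreated knockdown at several steps. FDPS, which makes farnesyl diphosphate, was at 84.4 and 54.4 CPM in the untreated knockdown, at 21.5 and 13.6 CPM in irradiated WT and at 18.7 and 24.3 CPM in untreated WT (1.99, SE 0.326, adjusted p = 0.0025). FDPS has 8 annotated pseudogenes, and reads may be shared with them. ACAT2, an acetyl-CoA acetyltransferase, passed at 1.54, the decarboxylase MVD at 1.56, the synthase HMGCS1 at 1.82, the epoxidase SQLE at 1.17 and the sterol oxidase MSMO1 at 1.02. Of 25 genes tested, 21 were higher, 7 passed higher (1.81% of all genes did) and 0 lower, with a median of 0.29.

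Some genes of the unfolded protein response passed higher too. HSPA5, the chaperone BiP of the endoplasmic reticulum, was at 935 and 685 CPM in the untreated knockdown, at 474 and 394 CPM in irradiated WT and at 359 and 348 CPM in untreated WT (0.90, SE 0.160, adjusted p = 0.00451). The transcription factor XBP1 was at 259 and 262 CPM in the untreated knockdown and at 149 and 122 CPM in irradiated WT (0.94, adjusted p = 0.00505), a call lost without irradiated WT replicate 2 (adjusted p = 0.0575). DDIT4, an inhibitor of the growth kinase mTOR, was at 63.1 and 52.4 CPM in the untreated knockdown, at 12.2 and 17.6 CPM in irradiated WT and at 40.8 and 29.7 CPM in untreated WT (1.95, adjusted p = 0.00451). Of 30 genes of this response and of its ATF4 branch, 24 were higher, with a median of 0.63. Of the 30, 5 passed higher (1.81% of all genes did) and 0 lower. The number was 3 without untreated knockdown replicate 1 and 3 without irradiated WT replicate 2.

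Iron and antioxidant genes held the called gene with the smallest p. FTH1 (chromosome 11, 61959718 to 61967660), the ferritin heavy chain that stores iron, was at 594 and 507 CPM in the untreated knockdown, at 27.8 and 30.6 CPM in irradiated WT and at 17.0 and 27.5 CPM in untreated WT. The groups were far apart, and the difference was 4.23 (SE 0.248, adjusted p = 3.41e-07). FTH1 has 25 annotated pseudogenes, and how counting dealt with reads that match several places is not given in the sources used here, so its level is uncertain. FTL, the light chain, was at 7422 and 6436 CPM in the untreated knockdown and at 7626 and 7419 CPM in irradiated WT (-0.12, adjusted p = 0.538). HMOX1, the haem oxygenase that frees iron, was at 69.3 and 52.1 CPM in the untreated knockdown, at 12.6 and 4.25 CPM in irradiated WT and at 10.8 and 6.87 CPM in untreated WT (2.88, SE 0.446, adjusted p = 0.00187). It was detected in 63.6% and 50.0% of cells in the untreated knockdown and in 23.1% and 10.9% in irradiated WT. Of all genes tested, 1.81% passed higher and 2.59% lower. Of 24 oxidative stress and NRF2 targets tested, 5 passed higher (FTH1, HMOX1, PRDX1, TXNRD1 and TKT) and 2 lower (AKR1C3 and PRDX6), with a median of 0.33. The number that passed higher was 2 without irradiated WT replicate 2, 3 without irradiated WT replicate 1, 3 without untreated knockdown replicate 1 and 8 without untreated WT replicate 1.

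Among the genes that were lower, keratins and calcium-binding proteins had large differences and high levels. KRT81, a hair keratin, was at 23.1 and 28.5 CPM in the untreated knockdown, at 394 and 186 CPM in irradiated WT and at 436 and 550 CPM in untreated WT (-3.49, SE 0.301, adjusted p = 2.02e-05). It was detected in 21.2% and 25.0% of cells in the untreated knockdown and in 89.7% and 65.2% in irradiated WT. Its level leaned on few cells, as 1 cell held 56.4% and 34.9% of its counts in the untreated knockdown and 35.5% and 53.5% in irradiated WT. KRT7 was at 184 and 185 CPM in the untreated knockdown and at 551 and 456 CPM in irradiated WT (-1.44). S100A2 was at 113 and 122 CPM in the untreated knockdown and at 498 and 505 CPM in irradiated WT (-2.09), and the galectin LGALS1 at 1951 and 1699 CPM in the untreated knockdown and at 4982 and 4206 CPM in irradiated WT (-1.33). The groups did not overlap for these genes, which held for all 549 genes that passed and is no further support. In each of these genes the untreated WT libraries lay nearer to irradiated WT.

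Some nuclear genes of the mitochondrial respiratory chain passed lower and some mitochondrially encoded ones passed higher. UCP2, a carrier of the inner mitochondrial membrane, was at 35.2 and 51.7 CPM in the untreated knockdown, at 301 and 261 CPM in irradiated WT and at 354 and 340 CPM in untreated WT (-2.69, SE 0.214, adjusted p = 8.47e-06). COX8A, a subunit of cytochrome oxidase, was at 170 and 150 CPM in the untreated knockdown, at 602 and 725 CPM in irradiated WT and at 519 and 617 CPM in untreated WT (-2.05, SE 0.159, adjusted p = 8.47e-06). The ATP synthase subunit ATP5O passed at -1.39 and the oxidase subunit COX6A1 at -1.30. Of 46 nuclear genes tested, 41 were lower, with a median of -0.33. Of the 46, 34 lay within 2-fold, against 31.1% of all genes and 67.9% of the genes of higher level. Of the 46, 10 passed lower (2.59% of all genes did) and 0 higher. The number that passed lower was 6 without untreated knockdown replicate 2. Of the 13 mitochondrially encoded genes 4 passed higher (1.81% of all genes did) and 0 lower, all 13 lay within 2-fold, and the median was 0.09. The number that passed higher was 2 without untreated knockdown replicate 2 and 2 without irradiated WT replicate 2. MT-ATP8, a subunit of ATP synthase, was at 2198 and 2164 CPM in the untreated knockdown and at 1193 and 1421 CPM in irradiated WT (0.74).

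Among glycolysis and ribosomal protein genes, more passed lower than higher. Of all genes tested, 2.59% passed lower, 1.81% passed higher and 31.1% lay within 2-fold. Among the genes of higher level, 67.9% lay within 2-fold. LDHA, lactate dehydrogenase, was at 1941 and 1697 CPM in the untreated knockdown and at 3200 and 3126 CPM in irradiated WT (-0.80, SE 0.103, adjusted p = 0.000533), and the pyruvate kinase PKM at 1350 and 1218 CPM in the untreated knockdown and at 1985 and 1981 CPM in irradiated WT (-0.63). Of 37 genes of hypoxia and glycolysis tested, 7 passed lower (4 without irradiated WT replicate 1) and 1 higher (GAPDH, which has many pseudogenes), with a median of -0.32. CA9, a carbonic anhydrase of the hypoxia response, was at 0.129 and 0 CPM in the untreated knockdown and at 29.2 and 7.16 CPM in irradiated WT. It passed at -8.07 (adjusted p = 0.00204), a size that rests on 2 and 0 counts in the untreated knockdown. Of 78 cytoplasmic ribosomal protein genes, 56 were lower, 17 passed lower and 2 higher (RPS23 and RPL30), with a median of -0.22, and 64 lay within 2-fold. RPL26 was at 80.5 and 78.5 CPM in the untreated knockdown and at 175 and 226 CPM in irradiated WT (-1.34), and has 14 annotated pseudogenes. The number that passed lower was 8 without untreated knockdown replicate 2 and 9 without irradiated WT replicate 2.

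**Figure D5:**
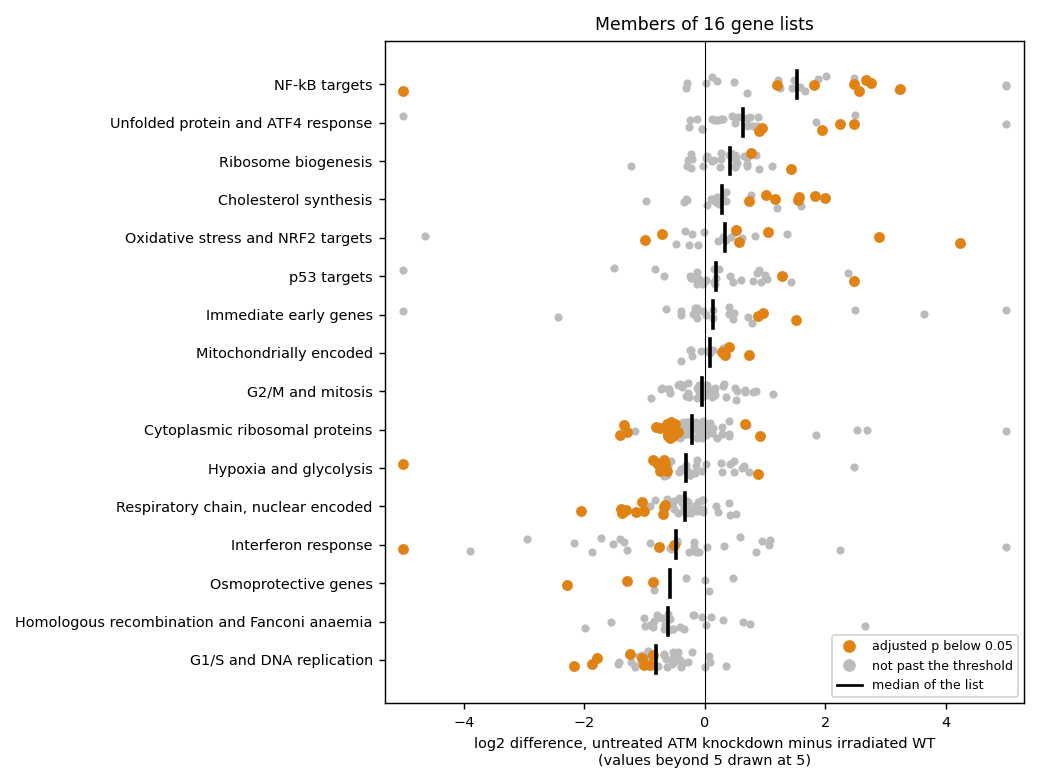
Log2 difference, untreated ATM knockdown minus irradiated WT, of each tested member (points) of 16 gene lists, with the median of each list as a black bar; orange points passed an adjusted p of 0.05 and values beyond 5 are drawn at 5. The median is 1.53 for NF-kB targets, 0.63 for the unfolded protein response and -0.82 for G1/S and DNA replication.

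DKC1 and YARS were above untreated WT in both groups, and further above it in the untreated knockdown. DKC1, the pseudouridine synthase of the nucleolus, was at 190 and 193 CPM in the untreated knockdown, at 115 and 112 CPM in irradiated WT and at 52.9 and 70.0 CPM in untreated WT (0.76, SE 0.183, adjusted p = 0.0282). The tyrosyl-tRNA synthetase YARS was at 104 and 129 CPM in the untreated knockdown, at 59.9 and 70.2 CPM in irradiated WT and at 28.96 and 34.7 CPM in untreated WT (0.84, SE 0.227, adjusted p = 0.0485). Against untreated WT, DKC1 differed by 1.64 in the untreated knockdown and by 0.88 in irradiated WT, and YARS by 1.87 in the untreated knockdown and by 1.03 in irradiated WT, all past the threshold. Of 32 ribosome biogenesis genes tested, 25 were higher in the untreated knockdown than in irradiated WT, with a median of 0.41. Of the 32, 2 passed higher (1.81% of all genes did) and 0 lower. Against untreated WT the median of that list was 1.11 in the untreated knockdown and 0.77 in irradiated WT. Of 19 aminoacyl-tRNA synthetases tested, 2 passed higher and 0 lower, with a median of 0.33. These direct calls were thin: without any 1 of the 4 compared libraries DKC1 had an adjusted p of 0.0603 to 0.125. For YARS it was 0.219 without untreated knockdown replicate 2, 0.224 without irradiated WT replicate 1, 0.102 without irradiated WT replicate 2, and 0.0532 and 0.0576 without either irradiated knockdown library.

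Interferon-responsive genes had a summed level of 0.201% and 0.202% of counts in the untreated knockdown, of 0.386% and 0.225% in irradiated WT and of 0.410% and 0.305% in untreated WT. OASL, an antiviral 2′-5′-oligoadenylate synthetase-like protein, was at 0.129 and 1.92 CPM in the untreated knockdown, at 122 and 3.11 CPM in irradiated WT and at 138 and 6.00 CPM in untreated WT. It passed at -5.86 (adjusted p = 0.0387; 0.0526 without untreated knockdown replicate 1), with replicate 1 high in each WT group, and without irradiated WT replicate 1 its adjusted p was 0.536. IFITM3, a membrane protein that blocks viral entry, was steadier, at 739 and 650 CPM in the untreated knockdown and at 1008 and 963 CPM in irradiated WT (-0.50, SE 0.122, adjusted p = 0.0285), but its call too was lost without irradiated WT replicate 1 (adjusted p = 0.119), irradiated WT replicate 2 (adjusted p = 0.0688) or untreated knockdown replicate 2 (adjusted p = 0.183). Of 32 genes tested, 23 were lower, 3 passed lower (2.59% of all genes did) and 0 higher, with a median of -0.48. The number that passed lower was 0 without irradiated WT replicate 1, 1 without untreated knockdown replicate 1, and 6 to 8 without any 1 of irradiated WT replicate 2, the untreated WT libraries and the irradiated knockdown libraries. The proton pump subunit ATP6V0A2 was at 21.6 and 14.5 CPM in the untreated knockdown and at 228 and 32.5 CPM in irradiated WT, where 1 cell held 90.7% of the counts of replicate 1. It passed at -2.85 (adjusted p = 0.0118), and its adjusted p was 0.43 without irradiated WT replicate 1.

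The cell line's defining markers were checked in the 4 libraries. VIM was at 2429 and 2401 CPM in the untreated knockdown and at 1936 and 1901 CPM in irradiated WT, and CD44 at 726 and 799 CPM in the untreated knockdown and at 593 and 540 CPM in irradiated WT. Of the 12 markers only SPARC was at 0 counts in any of the 4 libraries, in replicate 2 of both groups. The summed level of the 12 was 1.70% and 1.72% of counts in the untreated knockdown and 2.44% and 2.47% in irradiated WT, and LGALS1, S100A6, S100A4 and FN1 passed lower. Of 20 leukocyte markers 14 had 0 counts in both untreated knockdown libraries, PTPRC and CD3D among them, against 14 and 13 in the irradiated WT libraries, and the summed level was 0.0542% and 0.0501% in the untreated knockdown and 0.0666% and 0.0685% in irradiated WT. CD14, a leukocyte surface receptor, was at 12.9 and 9.90 CPM in the untreated knockdown and at 42.5 and 59.1 CPM in irradiated WT (-2.16, adjusted p = 0.00112). Of 12 embryonic kidney line markers 8 had 0 counts in each of the 4 libraries. The part of these markers in the other results was not tested.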

How the data were processed

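The deposited tables hold whole-number counts per coding gene and cell, made by the authors. Per the submitters' processing notes these came from Trimmomatic 0.36, HISAT2 2.1.0, HTSeq 0.9.1 and hg38. Whether the counts are reads or molecules, and whether strand was used, is not given in the sources used here. Of 378 cells in 8 libraries, 363 had at least 1000 genes and 5000 counts, and 8 of the 15 left out came from the untreated knockdown. The kept cells of a library were added up, genes were filtered by filterByExpr, and TMM factors set the scale. The test was the quasi-likelihood one of edgeR 4.0.16 (R 4.3.3) in 1 fit of 4 groups, with 4 residual degrees of freedom and a threshold of 0.05 after Benjamini-Hochberg adjustment over the 12456 genes tested. Intervals are at 95%, from the fitted SE. Intervals and floors do not cover differences between cultures, and floors cover counting error only. Detection was counted after thinning to 69000 counts per cell, which left 33 and 40 cells in the untreated knockdown and 39 and 46 in irradiated WT. Positions and pseudogenes came from GENCODE 29. The procedure was tested on simulated data.

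Gene lists were described by counts and medians, with no set test. The members, gene lists and alternatives were chosen with earlier results of these data known. The naming rule took 3 sets. The first was the 12 genes with the largest change in each direction, among those that passed, averaged 5 or more on the log2 CPM scale and did not overlap between the compared libraries. The second took, from each list with 2 or more called members, the 3 of smallest p. The third was a constant set of 31 genes. Genes outside it, such as CHEK1, FTL, NFKBIA, VIM, CD44 and the further members of a list given with their values, were chosen after their values were seen. Alternatives were DESeq2 1.42.0 (its size factors and its Wald test), limma 3.58.1 on log2 of the mean CPM per cell plus 1, library totals only, other filters on genes and cells, fits of fewer groups and each library left out. Python 3.11.15 was used. Some genes that the naming rule takes are not reported here.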

Additional observations from a re-analysis of the deposited data

How the results depend on the processing

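The count of 549 genes was 1095 with DESeq2's Wald test, 998 with no filter on low counts, 340 in a fit of the 2 compared groups only and 348 to 936 with each library left out in turn. The lowest came without irradiated WT replicate 2, and untreated WT replicate 1 or 2 left out gave 926 or 936. A fit without the irradiated knockdown, chosen after seeing the data, gave 383. In each of the 19 alternatives 0 of the 549 calls turned direction. Of the 86 named genes that passed, 57 passed in every alternative that could be fitted and 29 lost the call in at least 1; of the 21 that did not pass, 12 passed in at least 1. The mean distance of the untreated knockdown from irradiated WT, 1.36, was 0.606 among genes of higher level and 1.39 without cells above 2 times the median total. That from untreated WT, 1.48, was 0.707 among genes of higher level.

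Genes that did not pass turned direction as follows, the cause not tested. With limma on the mean CPM per cell, the differences were 0.54 for ATM, 0.074 for MCM10, 0.19 for PLK1 and 0.029 for CDC20, and without cells above 2 times the median total PLK1 was at 0.17. With each library left out in turn, the difference ran from -1.20 to 0.026 for ATM, between the fits without untreated knockdown replicate 2 and without replicate 1. It ran from -0.17, without untreated knockdown replicate 2, to 0.74, without irradiated WT replicate 2, for AKR1C2. For the others the ends lay at the fits without one or the other irradiated WT library. They ran from -0.55 to 0.18 for MDM2, -0.017 to 0.15 for AKR1B1, -0.027 to 1.58 for CST1, -0.064 to 0.31 for TNFAIP2, -0.61 to 1.22 for CCNB1, -0.71 to 0.97 for PLK1, -0.74 to 0.40 for CDC20 and -0.063 to 1.47 for KIF20A. No paired analysis was possible because the labels give no replicate numbers shared by the groups. With 2 libraries a group and the shallow irradiated WT replicate 1, genes of low counts have wide intervals.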

Other observations

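Matrix and actin genes split in direction between the untreated knockdown and irradiated WT. Of all genes tested, 1.81% passed higher and 2.59% lower. The fibronectin gene FN1 was at 134 and 76.6 CPM in the untreated knockdown and at 325 and 280 CPM in irradiated WT (-1.52, SE 0.263, adjusted p = 0.00367 by edgeR), and thrombospondin THBS1 at 588 and 902 CPM in the untreated knockdown and at 1260 and 1194 CPM in irradiated WT (-0.72, adjusted p = 0.0239). THBS1 lost its call without untreated knockdown replicate 1 (adjusted p = 0.147), without cells above 2 times the median total (0.0987) and in the fit of the 2 groups alone (0.0613). The basement membrane collagen COL4A1 was at 50.2 and 56.1 CPM in the untreated knockdown and at 18.7 and 19.9 CPM in irradiated WT (1.46, adjusted p = 0.00964), a call lost without irradiated WT replicate 1 (adjusted p = 0.0539) and without cells above 2 times the median total (0.085). Of 30 mesenchymal and matrix genes tested 1 passed higher and 5 lower (3 without untreated knockdown replicate 1). Of 24 YAP target and actin genes 1 passed higher, the tropomyosin TPM1 (1.20), and 5 lower, among them the non-muscle myosin MYH9 (-1.04), with 2 lower without irradiated WT replicate 1. TPM1 lost its call without irradiated WT replicate 2 (adjusted p = 0.164) and in the fit of the 2 groups alone (0.0555).

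Of 15 luminal epithelial markers tested 2 passed higher and 4 lower, and of 11 basal markers 1 passed higher. Among all genes tested 1.81% passed higher and 2.59% lower. Heat shock genes held 1 higher call of 15, the constitutive chaperone HSPA8 (0.84), and 4 lower, among them HSP90AA1 (-0.73), with 2 lower without untreated knockdown replicate 2 and without either irradiated WT library. MHC class I genes gave 0 calls of 13 by edgeR, 1 by DESeq2's Wald test and 1 at an unadjusted p below 0.05. Of 16 MAP kinase feedback genes 1 passed higher, the phosphatase DUSP5 (1.95), and 3 lower, of which 1 was left without untreated knockdown replicate 2 or irradiated WT replicate 1. Of 31 apoptosis regulators BIRC3 passed higher and 2 passed lower, among them BAD (-1.05). BAD lost its call without irradiated WT replicate 2 (adjusted p = 0.182), without untreated knockdown replicate 1 (0.0591) or 2 (0.0635) and in the fit of the 2 groups alone (0.0561).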
